A study of Mus musculus with 9 samples.

Results

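This report covers 10 genes that the transcription factor p53 is known to activate, other than Cdkn1a: Mdm2, Ccng1, Trp53inp1, Bax, Eda2r, Phlda3, Sesn2, Plk2, Zmat3 and Psrc1. They were taken by name from the 32427 genes of the count matrices, and all 10 were present in them. The names were chosen with the difference between the AKI-CKD and Control mice already known. Their values in that comparison are therefore given as a description without a test, and no test of the members is given for it. The comparisons with the EGT mice are tested, but they share mice with that difference and are not independent of the choice. The division of cells by Cdkn1a did not use the groups.

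The data were droplet-based single-cell RNA libraries of kidney tissue from 9 male C57BL/6 mice, 1 library per mouse and 3 mice per group, made to ask how ergothioneine (EGT), an antioxidant amino acid taken up from the diet, bears on kidneys that pass from acute injury (AKI) into chronic disease (CKD). The mice were 6 weeks old at the start. Control mice were injected with saline. AKI-CKD mice were injected with cisplatin, a platinum drug that cross-links DNA and is taken up by the proximal tubule, at 8 mg/kg once a week for 4 weeks. AKI-CKD + EGT mice had the same cisplatin schedule and drank water with EGT at 0.5 mg/mL for 8 weeks, starting 3 days before the first injection. There was no group with EGT and no cisplatin.

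p53 is held at a low level in resting cells because Mdm2 marks it for degradation. When DNA is damaged the protein is stabilised by kinases, binds paired copies of a short motif near its target genes and raises their transcription, so its activity is usually read from its targets and not from its own mRNA. The targets act in several directions: some feed back on p53 itself, some favour cell death, and others slow growth, adjust metabolism or bind RNA. In the kidney this response is best known from proximal tubule cells exposed to cisplatin.

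Each library held 70106161 to 101525691 UMIs (unique molecular identifiers, each standing for 1 captured RNA molecule), and 196925 of 216680 barcodes were kept because they reached 1000 UMIs and 500 genes with no more than 15% of UMIs from mitochondrial genes. The study states the same limits but retained fewer cells, so the cells used here are not its set, and the reason was not examined. Kept cells had a median of 2534 to 2966 UMIs per library, and their mean mitochondrial share ran from 2.00% to 7.88%. Cells were clustered anew and classes were named from marker genes, each cluster with at least 3 of its markers at least 2-fold higher than elsewhere. Proximal tubule-like (PT) cells numbered 135279, with 8840 to 19561 per mouse. Loop of Henle-like (LOH) cells numbered 11639, distal convoluted tubule-like (DCT) 7642, collecting duct principal-like (CD-PC) 1814 and intercalated-like (CD-IC) 1239. Outside the tubule there were 3398 endothelial-like, 1892 macrophage-like, 927 T-like and 692 B-like cells, besides 802 cells of a cycling cluster and 520 of a cluster led by Ren1, the gene of renin, and by the contractile genes Acta2, Myl9, Tagln and Myh11. This cluster had 7 of the 7 myofibroblast markers used, but smooth muscle cells and pericytes share them, so it is called the Ren1/Acta2 cluster. A further 30746 cells stayed unnamed, and 335 podocyte-like cells were too few per mouse to use. Most of the unnamed cells lay in clusters whose markers were nearest to PT (12930, 12552, 3309 and 279 cells), and the PT sums leave these out.

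The stretches below are those of the 8 members with a promoter window in the RefSeq table, build GRCm38.p6, that hold the p53 half-site of 10 letters, and they are shown with Cdkn1a, the best known p53 target, as a reference. A window ran from 250 bases before to 50 bases after a transcription start. The half-site is printed in capitals with 15 bases on each side, 5′ to 3′ on the strand of the gene, and because the motif reads the same on both strands a single search covers both.
Bax, chr7:45467075-45467114, minus strand: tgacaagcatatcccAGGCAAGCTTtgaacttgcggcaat
Mdm2, chr10:117710920-117710959, minus strand: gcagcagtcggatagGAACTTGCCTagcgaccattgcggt
Ccng1, chr11:40755447-40755486, minus strand: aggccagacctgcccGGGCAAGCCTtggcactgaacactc
Cdkn1a, chr17:29090891-29090930, plus strand: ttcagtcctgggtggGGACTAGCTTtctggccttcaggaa
Cdkn1a, chr17:29090913-29090952, plus strand: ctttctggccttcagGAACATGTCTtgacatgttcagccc
A half-site was present in 3 of these 8 members and in 8.36% of all 32851 windows. Allowing mismatches outside the fixed C and G, the closest pair of half-sites within 13 bases of each other had 1 mismatch in Ccng1, which 0.627% of windows matched or bettered, and 2 in Bax, which 4.09% matched or bettered. The windows of Mdm2, Phlda3, Plk2, Sesn2, Eda2r and Psrc1 held no pair with fewer than 4 mismatches, while 1 of 2 windows of Cdkn1a held a pair with 0 mismatches, as did 0.0731% of windows, and the other held no half-site and a closest pair with 5 mismatches. These are matches of letters in 1 window and not binding sites. The window looked at lies close to the transcription start, and sites elsewhere in the genes were not searched.

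In PT cells, 8 of the 10 members were higher in all 3 AKI-CKD mice than in all 3 Control mice, and the remaining members, Mdm2 and Sesn2, overlapped between the groups. By the same count 11.8% of the 17102 genes with at least 10 UMIs per mouse on average were higher in every AKI-CKD mouse. The members were chosen on this difference, so the count describes them and tests nothing. Values are CPM, the usual count-per-total scale, from the summed PT cells of a mouse after scaling by TMM (trimmed mean of M-values). The count of members is on this scale, and with plain total UMIs Trp53inp1 overlapped between the groups too. Fewer molecules per cell and a smaller share of cells with the transcript cannot be told apart in such sums.

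The members that act on growth signalling and the cytoskeleton were higher in every AKI-CKD mouse than in every Control mouse. Phlda3, a lipid-binding protein that keeps the kinase Akt from the membrane, was at 2.56, 1.42 and 1.26 CPM in Control mice 1 to 3, at 8.97, 20.6 and 19.5 CPM in AKI-CKD mice 1 to 3, and at 4.56, 3.31 and 4.54 CPM in AKI-CKD + EGT mice 1 to 3. The 3 groups did not overlap, with the EGT mice between the other groups, and the log2 fold change between AKI-CKD and Control was 3.23 (SE 0.35). Plk2, a polo-like kinase induced by several kinds of stress, was at 6.87, 5.72 and 1.53 CPM in Control mice, 8.75, 42.5 and 30.5 CPM in AKI-CKD and 7.98, 8.44 and 12.9 CPM in AKI-CKD + EGT mice. AKI-CKD mouse 1 was close to the Control mice for this gene, and the log2 fold change of 2.53 had an SE of 0.58.

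The Plk2 values also moved with another measure. A list of 15 genes that are induced when tissue is dissociated (Fos, Jun, Egr1 and others) summed to 3361, 2664 and 1409 CPM in the PT cells of Control mice 1 to 3, to 1989, 3790 and 2448 CPM in AKI-CKD mice 1 to 3 and to 1798, 2951 and 3650 CPM in AKI-CKD + EGT mice 1 to 3. Within each group the mice had the same order by Plk2 as by the dissociation sum, and the part of dissociation in the Plk2 values was not tested. Psrc1, a protein of the mitotic spindle, was scarce at 0.228, 0.223 and 0.260 CPM in Control mice, 1.1, 1.52 and 1.38 CPM in AKI-CKD and 0.574, 0.600 and 0.884 CPM in AKI-CKD + EGT mice. These levels rest on 49, 247 and 108 UMIs per group, and the groups did not overlap (log2 fold change between AKI-CKD and Control 2.48, SE 0.30).

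Both members linked to cell death were higher in every AKI-CKD than in every Control mouse, by different amounts. Eda2r, a receptor of the tumour necrosis factor family that binds a form of ectodysplasin, stood at 0.183, 0.0556 and 0.0578 CPM in Control mice, 0.798, 1.11 and 1.35 CPM in AKI-CKD and 0.364, 0.326 and 0.329 CPM in AKI-CKD + EGT mice. Its totals were 20, 204 and 54 UMIs per group and its log2 fold change between AKI-CKD and Control was 3.45 (SE 0.46). Bax, which opens the outer mitochondrial membrane in apoptosis, was at 77.6, 89.0 and 79.9 CPM in Control mice, 108, 143 and 138 CPM in AKI-CKD and 113, 84.1 and 75.6 CPM in AKI-CKD + EGT mice. On this TMM scale EGT mouse 1 reached the level of AKI-CKD mouse 1, and the other EGT mice sat within the Control range or just below it. The log2 fold change between AKI-CKD and Control was 0.66 (SE 0.17).

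Of the genes that feed back on p53, Ccng1 had the widest gap between AKI-CKD and Control. Ccng1, cyclin G1, recruits a phosphatase to Mdm2 and was at 31.3, 31.6 and 42.1 CPM in Control mice, 59.0, 63.1 and 81.2 CPM in AKI-CKD and 51.1, 36.5 and 30.7 CPM in AKI-CKD + EGT mice. Trp53inp1, a stress protein that favours p53 phosphorylation and autophagy, was at 15.9, 13.9 and 14.4 CPM in Control mice, 17.3, 23.1 and 24 CPM in AKI-CKD and 18.8, 16.2 and 20.5 CPM in AKI-CKD + EGT mice. Their log2 fold changes between AKI-CKD and Control were 0.95 (SE 0.21) and 0.54 (SE 0.14), with no overlap between those groups on the TMM scale. With plain total UMIs Trp53inp1 overlapped, at 13.1 to 16.9 CPM in Control and 16.7 to 21.8 CPM in AKI-CKD mice.

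Mdm2, the ubiquitin ligase that degrades p53, was at 27.3, 23.2 and 23.8 CPM in Control mice, 26.0, 34.7 and 31.6 CPM in AKI-CKD and 25.2, 24 and 24 CPM in AKI-CKD + EGT mice. Its log2 fold change between AKI-CKD and Control was 0.31 (SE 0.13), and AKI-CKD mouse 1 lay within the Control range.

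The last members act on metabolism and on RNA. Sesn2, a sestrin that restrains mTORC1 when amino acids are short, was at 38.3, 52.8 and 42.9 CPM in Control mice, 56.5, 50.3 and 57.7 CPM in AKI-CKD and 33.7, 30.1 and 44.7 CPM in AKI-CKD + EGT mice. Zmat3, a zinc finger protein that binds RNA, was at 6.40, 6.76 and 7.54 CPM in Control mice, 11.9, 12.4 and 15.3 CPM in AKI-CKD and 9.48, 7.56 and 7.38 CPM in AKI-CKD + EGT mice. Zmat3 separated the AKI-CKD from the Control mice with a log2 fold change of 0.93 (SE 0.15), whereas Sesn2 did not (0.30, SE 0.17). Over the 10 members the median log2 fold change was 0.94, beside -0.01 over all 17868 genes tested.

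**Figure D1:**
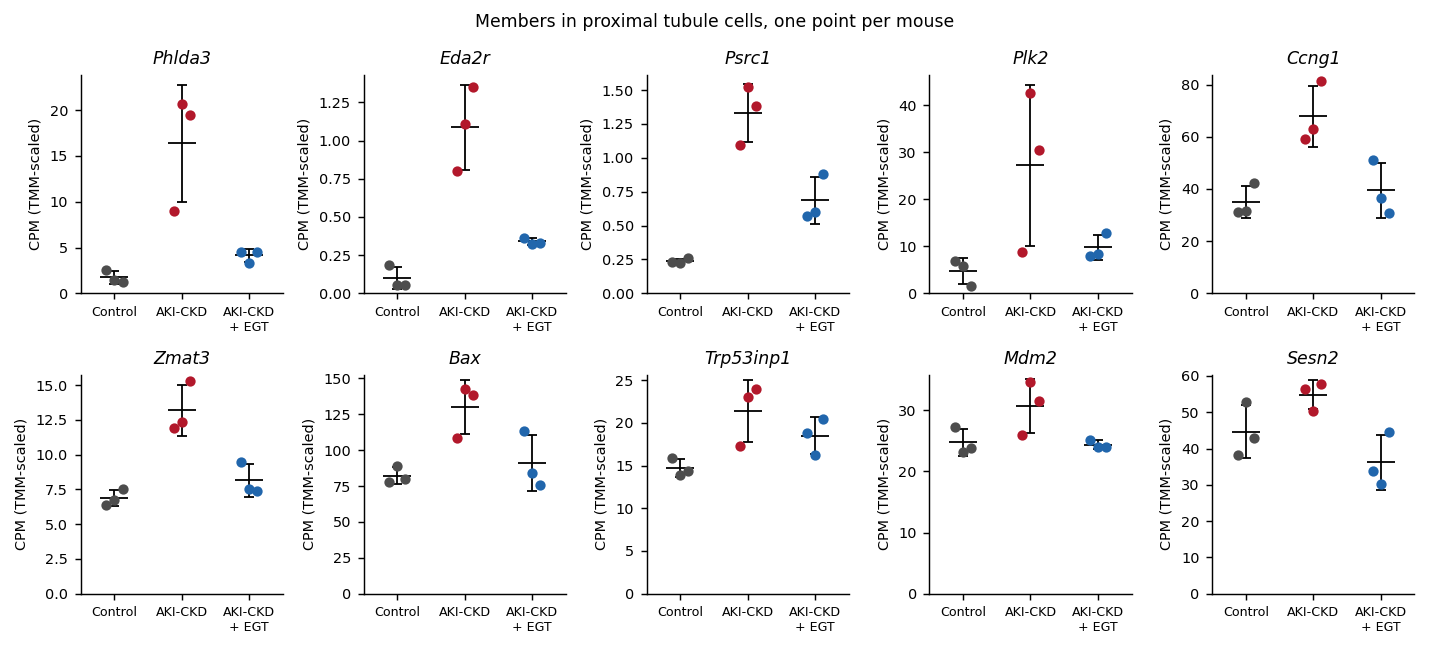
Level of each member in PT cells, in TMM-scaled CPM from 0 on a linear axis, with 1 point per mouse, a short line at the group mean and error bars of 1 SD (n = 3 mice). Phlda3 shows 3 separate groups, from 1.26 to 2.56 CPM in Control mice, 3.31 to 4.56 CPM in AKI-CKD + EGT and 8.97 to 20.6 CPM in AKI-CKD mice, while Mdm2 lies between 23.2 and 34.7 CPM throughout.

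The comparison of the AKI-CKD + EGT with the AKI-CKD mice asks how the members stood when EGT was given with cisplatin. It shares the AKI-CKD mice with the difference on which the members were chosen. Because members were taken as high in these mice, the choice favours values below 0, and the shares of all genes given below are not what members chosen in this way would show without a change. In PT cells the AKI-CKD + EGT mice had less of every member on the fitted scale, with 10 of 10 log2 fold changes below 0, and 7 members were lower in all 3 EGT mice than in all 3 AKI-CKD mice: Phlda3, Eda2r, Mdm2, Ccng1, Sesn2, Zmat3 and Psrc1. Such separation was met by 11.3% of 17102 genes. No member passed the test across all genes, in which edgeR's quasi-likelihood test called 0 of 10 members and 0 of 17868 genes (0%) at an adjusted p under 0.05.

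At an unadjusted p under 0.05, edgeR had 9 of 10 members, all but Trp53inp1, against 15% of all genes. DESeq2, which models the spread between mice in another way, called 5 members (Phlda3, Eda2r, Ccng1, Zmat3 and Sesn2) and 2.37% of 17226 genes at an adjusted p under 0.05. The result for single members therefore differed between the tools, and it is given here as values. The largest log2 fold change was that of Phlda3 at -1.98 (SE 0.33, edgeR adjusted p = 0.226, DESeq2 adjusted p = 1.98e-05).

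Eda2r had a log2 fold change of -1.67 (SE 0.41), Plk2 of -1.48 (SE 0.56) and Psrc1 of -0.96 (SE 0.28). The middle of the list was formed by Ccng1 at -0.78 (SE 0.20), Zmat3 at -0.70 (SE 0.15), Sesn2 at -0.60 (SE 0.17) and Bax at -0.51 (SE 0.17), and the smallest were Mdm2 at -0.33 (SE 0.13) and Trp53inp1 at -0.21 (SE 0.14). The edgeR adjusted p of the 10 members ran from 0.226 to 0.509. Their median log2 fold change was -0.74, beside -0.01 over all genes tested.

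Library scaling moved these values by a common amount. The TMM factor of the PT sums was highest in AKI-CKD + EGT mouse 3, at 1.20, and lowest in AKI-CKD mouse 3, at 0.894. With plain total UMIs the median of all genes shifted to 0.20 and the members shifted with it, to -1.75 for Phlda3, -0.12 for Mdm2 and 0.015 for Trp53inp1, which changed sign, while the other 9 members stayed below 0. On that plain scale Mdm2, Sesn2 and Psrc1 overlapped between the AKI-CKD + EGT and the AKI-CKD mice. Phlda3, Eda2r, Ccng1 and Zmat3 were still lower in every EGT mouse. The mitochondrial share of PT cells also separated these groups, at 2.30% to 3.60% in the AKI-CKD and 4.07% to 6.62% in the AKI-CKD + EGT mice. With the mitochondrial limit at 10% the log2 fold change of Phlda3 was -1.95 and those of all 10 members stayed below 0.

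Compared with Control, the AKI-CKD + EGT mice had log2 fold changes above 0 for 8 members and below 0 for Mdm2 (-0.02, SE 0.13) and Sesn2 (-0.31, SE 0.17). This comparison shares the Control mice with the choice of the members, which favours values above 0 in the same way. Phlda3, Eda2r, Trp53inp1, Plk2 and Psrc1 were higher in all 3 EGT mice than in all 3 Control mice, 5 of 10 members beside 4.87% of all genes. With plain total UMIs these 5 stayed higher, and Bax and Zmat3 were higher in every EGT mouse too. On that scale Bax was at 77.6 to 83.5 CPM in Control and 88.3 to 114 CPM in EGT mice. Zmat3 was at 6.35 to 7.32 CPM in Control and 7.93 to 9.55 CPM in EGT mice, and the share of all genes on that scale is not given here. Again edgeR called 0 of 10 members and 0 of 17868 genes (0%), with adjusted p from 0.251 to 0.980, and 4 members had an unadjusted p under 0.05, against 7.47% of genes: Eda2r, Phlda3, Psrc1 and Trp53inp1.

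DESeq2 called Phlda3 and Psrc1, along with 0.678% of 15479 genes. The log2 fold change of Psrc1 was 1.52 (SE 0.30), of Phlda3 1.25 (SE 0.34), of Eda2r 1.78 (SE 0.48) and of Plk2 1.05 (SE 0.57). The remaining positive values were 0.33 for Trp53inp1, 0.24 for Zmat3, 0.17 for Ccng1 and 0.15 for Bax. Without AKI-CKD + EGT mouse 1, Ccng1 came to -0.053 and Bax to -0.034, so on the TMM scale their sign in this comparison rested on that mouse. Mdm2 turned to 0.049 without Control mouse 1.

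**Figure D2:**
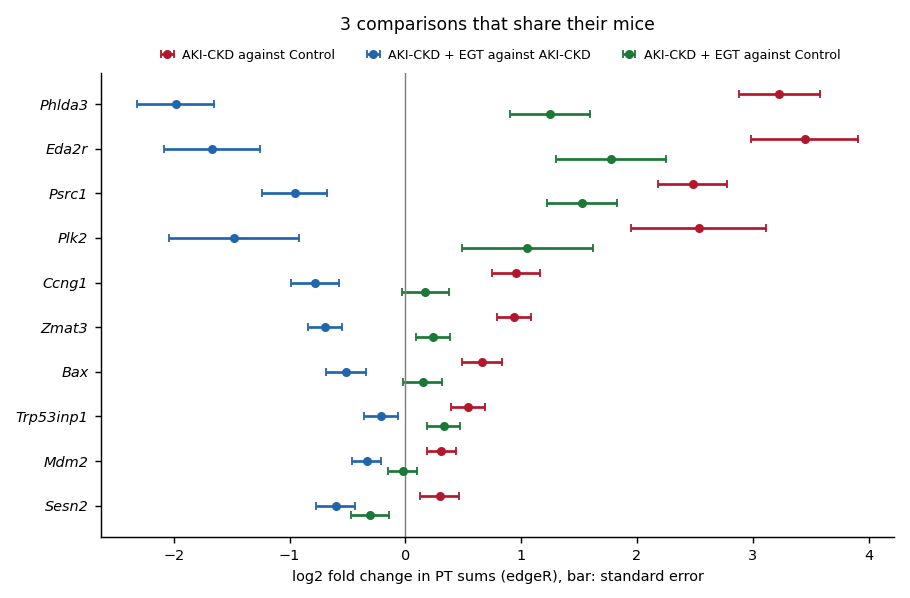
Log2 fold changes of the 10 members in PT cells from edgeR, with error bars of 1 SE, for the 3 comparisons of the groups on a common axis. The points for AKI-CKD + EGT against AKI-CKD lie below 0 for all 10 members, from -1.98 for Phlda3 to -0.21 for Trp53inp1, and those for AKI-CKD against Control, which chose the members, lie above 0.

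The members differed in where in the kidney they were found. For levels between classes, CPM of plain total UMIs is used. In Control mice Phlda3 was highest in endothelial-like cells, at 27.3 ± 3.91 CPM (SD, n = 3 mice, as for the values that follow), followed by the Ren1/Acta2 cluster at 21.7 ± 10.9 and the cycling cluster at 14.2 ± 7.03. The mice of these 3 classes overlapped from each class to the next. DCT cells came next at 9.72 ± 2.41, apart from LOH cells at 3.14 ± 1.09. PT cells were at 1.76 ± 0.84, CD-PC at 1.41 ± 1.35 (3 UMIs) and CD-IC at 1.33 ± 2.30 (2 UMIs), and the mice of PT cells overlapped with those of LOH, CD-PC and CD-IC cells. B-like cells of the Control mice held 0 UMIs of Phlda3.

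In AKI-CKD mice Phlda3 reached 67.2 ± 30.8 CPM in the cycling cluster, 52.0 ± 12.8 in endothelial-like cells, 41.2 ± 8.24 in the Ren1/Acta2 cluster, and 41.0 ± 22.2 in DCT, 26.9 ± 14.7 in CD-PC, 21.4 ± 8.19 in CD-IC, 17.0 ± 4.94 in LOH and 15.2 ± 5.74 in PT cells. Each of these overlapped with the next in the order. In AKI-CKD + EGT mice it was again highest in endothelial-like cells, at 29.1 CPM, and stood at 19.6 CPM in DCT and 4.50 CPM in PT cells. PT cells thus had the lowest mean Phlda3 of the 5 tubular classes in the AKI-CKD mice, though not in the Control mice.

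Other members had their own places. Plk2 was highest in endothelial-like cells, at 71.6 ± 28.9 CPM for Control, 92.8 ± 50.8 for AKI-CKD and 95.6 ± 11.5 for EGT mice, and second in B-like cells, at 33.5, 46.7 and 46.3 CPM. The mice of these classes overlapped for Control and AKI-CKD and were apart for EGT. Psrc1 was concentrated in the cycling cluster, with 21.3 ± 6.08 CPM for Control and 26.3 ± 11.9 for AKI-CKD mice, apart from every other class, none of which had a mean over 2.30 CPM in either group. Sesn2 was highest in CD-PC cells, at 64.8 ± 21.1 CPM for Control and 77.2 ± 15.1 for AKI-CKD mice, where PT cells had 44.0 and 51.2 CPM. In Control mice the CD-PC values overlapped with CD-IC cells, at 60.7 ± 35.4 CPM, and with PT cells. In AKI-CKD mice they were apart from PT cells but overlapped with the cycling cluster.

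Ccng1 led in CD-IC cells of Control mice, at 59.6 ± 11.7 CPM, overlapping with the cycling cluster. In AKI-CKD mice it led in the cycling cluster, at 109 ± 10.5, where it was separate from the next class. Bax was spread evenly, from 65.9 to 110 CPM over the 11 classes of Control mice, and every class overlapped with its neighbour in the order. Mdm2 spanned 18 to 40.1 CPM in Control mice, with CD-IC, DCT and CD-PC cells at the top. Zmat3 had its highest Control values in the same 3 classes, at 22.2, 17.2 and 16.5 CPM. For Mdm2 and Zmat3 each of these 3 classes overlapped with the next in the order. Trp53inp1 was highest in T-like and CD-IC cells of Control mice, at 32.6 and 31.0 CPM, in the Ren1/Acta2 cluster of AKI-CKD mice, at 43.9 CPM, and in CD-IC cells of EGT mice, at 50.4 CPM, each overlapping with the next class. Eda2r had at most 12 UMIs per group in any class but PT, so no order can be read for it.

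**Figure D3:**
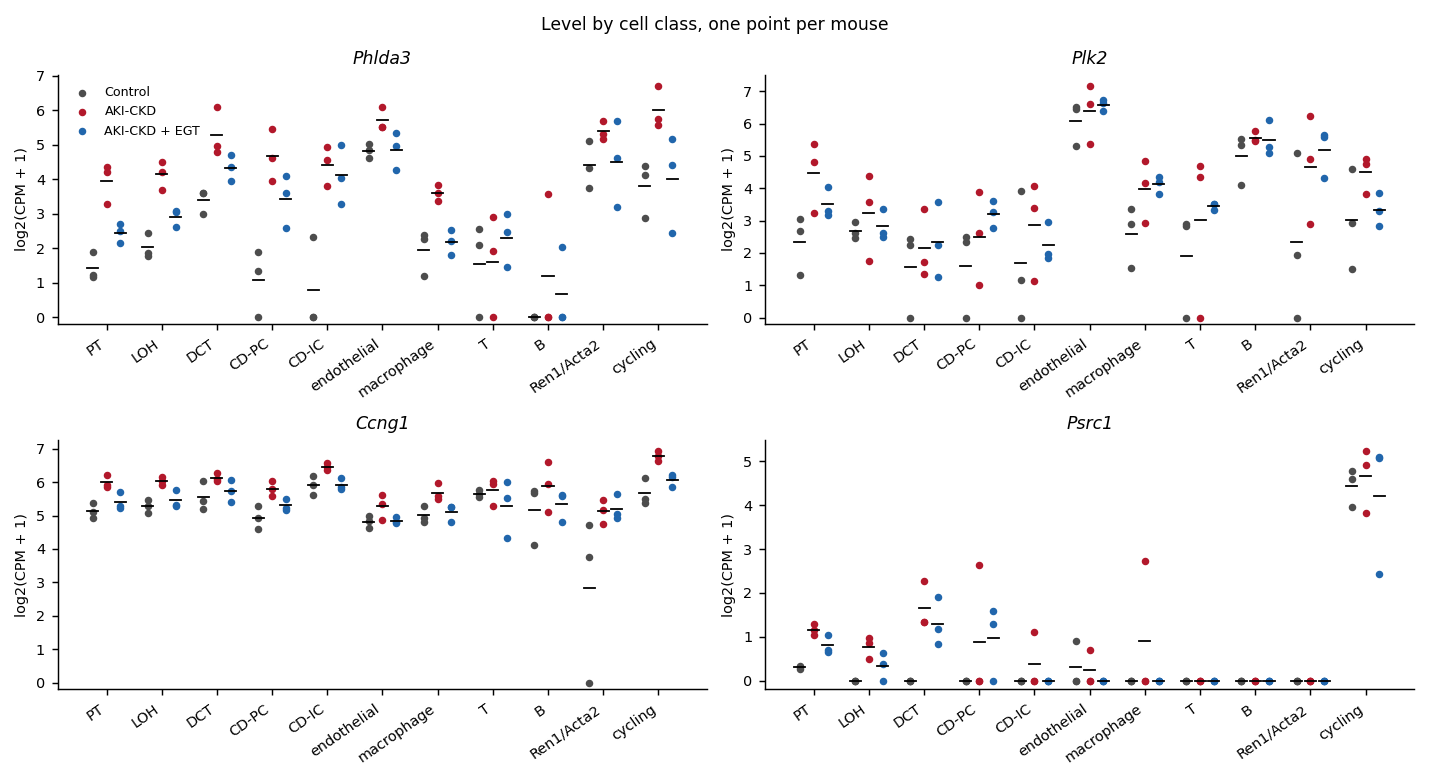
Level of Phlda3, Plk2, Ccng1 and Psrc1 in each named class, as log2(CPM + 1) of plain total UMIs, with 1 point per mouse and a short line at the mean of the 3 mice of a group. Psrc1 is high in the cycling cluster alone among the classes, Plk2 has its highest means in endothelial-like cells, and Phlda3 reaches 67.2 CPM on average in the cycling cluster of AKI-CKD mice.

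Across the 10 classes other than PT, 53 pairs of a member and a class had at least 10 UMIs per mouse on average. In 22 of them all AKI-CKD mice were above all Control mice and in 1, Mdm2 in CD-IC cells, all were below, beside 8.25% of all pairs of a gene and a class being higher. As in PT cells this difference helped to choose the members. The pairs included Bax in 7 classes, Ccng1 in LOH, DCT, CD-PC, CD-IC, macrophage-like and cycling cells, and Phlda3 in LOH, DCT, endothelial-like and cycling cells.

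The choice of the members bears on the comparisons with the EGT mice here as in PT cells. The AKI-CKD + EGT mice lay wholly below the AKI-CKD mice in 16 of these 53 pairs and wholly above in 0, where 8.32% of all pairs were below. Phlda3 in DCT cells was at 27.9, 72.3 and 31.2 CPM in AKI-CKD and at 25.1, 18 and 13.6 CPM in AKI-CKD + EGT mice, on the TMM scale. The Control mice had 11, 11.1 and 6.73 CPM, and the EGT mice were above them. Ccng1 in LOH cells was at 39.3, 34.2 and 40.8 CPM in Control mice, 64.9, 58.7 and 71.4 CPM in AKI-CKD and 52.1, 37.8 and 37.7 CPM in AKI-CKD + EGT mice.

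Of 58 pairs that passed edgeR's filter, 48 had a log2 fold change below 0 between AKI-CKD + EGT and AKI-CKD mice. The share of all pairs below 0 is not given here, so this count is a description. EdgeR called 0 of 58, with 0.210% of all pairs called. DESeq2 called 0 of the 58 pairs to which it gave an adjusted p, and 0.451% of all such pairs. Without AKI-CKD + EGT mouse 1, edgeR called 3 pairs, Phlda3 in DCT and LOH cells and Ccng1 in LOH cells, while 2.03% of all pairs were called in that fit. With all 9 mice, DESeq2 gave an unadjusted p under 0.05 for 7 of its 58 pairs. The share of all pairs under that p with DESeq2 is not given here, so this count is not read as a result about the members. By edgeR an unadjusted p under 0.05 was reached by 17 of the 58, against 11.6% of all pairs. These were Ccng1 in LOH, DCT, CD-PC, CD-IC, endothelial-like, macrophage-like and cycling cells, Phlda3 in LOH, DCT, CD-PC, endothelial-like and cycling cells, Bax in DCT and T-like cells, Zmat3 in LOH and CD-PC cells and Sesn2 in CD-PC cells.

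Ccng1 was below 0 in all 8 classes where it was tested, from -0.53 in DCT to -0.75 in cycling cells. Phlda3 varied more between classes, at -1.66 (SE 0.48) in cycling, -1.39 (SE 0.28) in LOH, -1.34 (SE 0.49) in CD-PC, -1.24 (SE 0.34) in DCT, -0.95 (SE 0.27) in endothelial-like and -0.34 in CD-IC cells. Whether it differed between classes was not tested. Trp53inp1 had the largest values above 0, at 0.84 in CD-IC, 0.79 in CD-PC and 0.61 in T-like cells, none of which passed the test.

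Against Control, edgeR called 0 of 58 pairs for the AKI-CKD + EGT mice (0.00136% of all pairs were called), and DESeq2 called 0 of 91 with an adjusted p (0.00701% of all such pairs). An unadjusted p under 0.05 was found for 5 pairs, against 5.03% of all pairs. They were Phlda3 in LOH (1.08, SE 0.34), DCT (0.95, SE 0.39), CD-PC (2.64, SE 0.83) and CD-IC cells (3.55, SE 0.89) and Sesn2 in CD-IC cells (-1.14, SE 0.40). In CD-PC and CD-IC cells Phlda3 had only 3 and 2 UMIs in the Control mice together, so the size of its fold change there is loosely set.

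**Figure D4:**
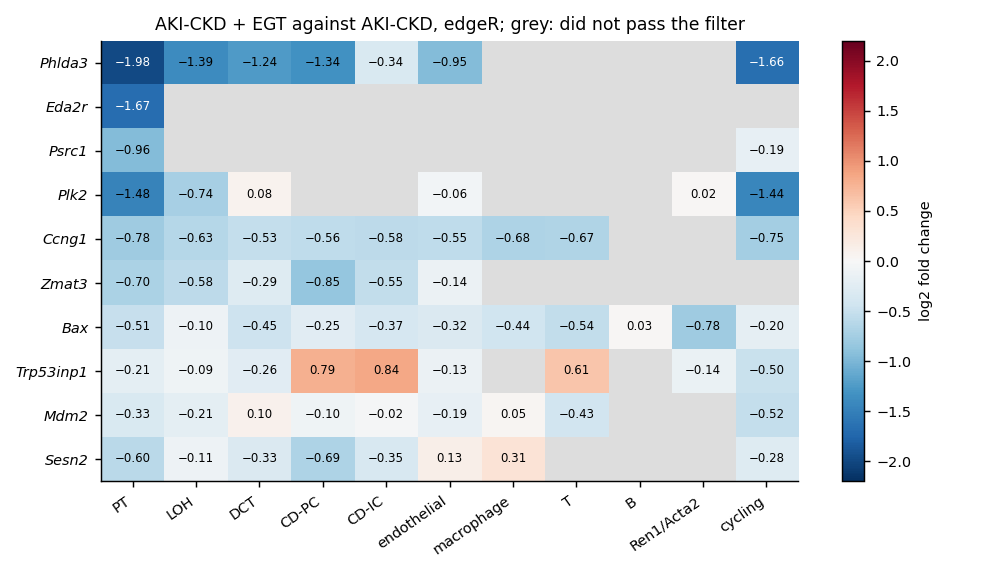
Log2 fold changes between AKI-CKD + EGT and AKI-CKD mice from edgeR for each member and class that passed the filter on low counts, with grey cells where a gene was not tested. Phlda3 and Ccng1 are below 0 in every class tested, and Trp53inp1 is above 0 in CD-PC, CD-IC and T-like cells.

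A further measure did not use the groups. PT cells of each mouse were divided by whether they held a UMI of Cdkn1a, the p53 target that blocks the cell cycle, after every cell had been thinned to 1000 UMIs so that depth could not set the division. No cell had fewer UMIs, so none was left out. The share with a Cdkn1a UMI was 0.327% to 0.849% in Control and 3.03% to 6.20% in AKI-CKD mice, it was 1.3% to 2.92% in AKI-CKD + EGT mice, and before thinning 1.01% to 14.8% over the 9 mice. B-like cells, set beside them on the untested premise that they hold little Cdkn1a, had 0% to 8.33% at the same depth and T-like cells 3.92% to 8.92%. These shares are loosely set, with 38 to 165 B-like and 60 to 213 T-like cells per mouse. The PT shares lie within the range of the B-like cells, so they are not read as shares of expressing cells, and RNA set free by other cells may be among these UMIs.

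Cells with a Cdkn1a UMI held more of most members than the other PT cells of the same mouse. Of the 8 members that passed the filter edgeR called 6 as higher at an adjusted p under 0.05, where it called 0.816% of 11024 genes as higher, in a fit with the mouse as a block. Among these 8, Phlda3 had the largest difference, a log2 fold change of 2.34 (SE 0.19, edgeR adjusted p = 3.12e-31). It was at a median of 36.2 CPM in cells with and 4.29 CPM in cells without a Cdkn1a UMI, and was higher in 8 of 9 mice, the exception being Control mouse 3 with 0 UMIs among 57 cells.

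Plk2 followed with 1.79 (SE 0.16), at a median of 36.2 against 6.74 CPM and higher in 8 of 9 mice. Trp53inp1 rose by 1.17 (SE 0.16), from 16.7 to 38.2 CPM, and was higher in 9 of 9 mice. Zmat3 rose by 0.99 (SE 0.22) in 7 of 9 mice, Mdm2 by 0.86 (SE 0.14) in 9 of 9 and Ccng1 by 0.72 (SE 0.10) in 9 of 9. The medians of Mdm2 were 43.4 and 23.9 CPM, and those of Ccng1 86.6 and 41.3 CPM.

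Bax and Sesn2 were not called, with log2 fold changes of 0.11 (SE 0.08, edgeR adjusted p = 0.689) and 0.22 (SE 0.13, adjusted p = 0.495). Eda2r and Psrc1 did not pass the filter, having 9 and 22 UMIs in cells with a Cdkn1a UMI. DESeq2 kept an adjusted p for only 1353 genes, of which it called 3.10% as higher, and for 1 member, Bax, which it did not call. At an unadjusted p under 0.05 it had 8 of the 10, and 1693 of the 27045 genes with a UMI.

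Within single groups, edgeR called Phlda3 and Plk2 among the Control mice (0.181% of genes higher), Phlda3, Plk2, Trp53inp1, Mdm2 and Ccng1 among the AKI-CKD mice (0.608%) and Phlda3, Plk2, Trp53inp1, Ccng1 and Zmat3 among the AKI-CKD + EGT mice (0.218%). The Control calls rested on few cells, 57 to 166 per mouse. Without Control mouse 1, 1 call was left, beside 17 of 11028 genes called as higher, and without Control mouse 2 none was, beside 1 of 11037. Among the AKI-CKD + EGT mice 1 call was left without mouse 2, beside 12 of 11005 genes called as higher, and 2 without mouse 3, beside 18 of 11390. With another thinning seed the Control calls numbered 0, beside 17 of 11015 genes called as higher. Without the mouse block the calls numbered 0 among Control, 2 among AKI-CKD and 0 among EGT mice, where 0, 6 and 1 of 11024 genes were called as higher. The log2 fold change of Phlda3 was 3.68 (SE 0.76) in Control, 2.02 (SE 0.21) in AKI-CKD and 3.05 (SE 0.44) in AKI-CKD + EGT mice. Tests of the difference between groups called 0 of 8 members with edgeR and 0 of 10 with DESeq2 in each of the 3 pairs of groups, where edgeR called 0.0272% of all tests and DESeq2 0 of 27045 genes in each pair. At an unadjusted p under 0.05 edgeR had 1 member, Phlda3, between AKI-CKD and Control mice, as it had 738 of 11024 genes, and again Phlda3 between AKI-CKD + EGT and AKI-CKD mice, as it had 481 of 11024.

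The cells with a Cdkn1a UMI differed in other ways too. In 9 of 9 mice they held more of a list of 10 tubular injury genes (494 to 1044 CPM against 364 to 773) and of the dissociation list (1772 to 4960 against 1164 to 3437), and less of the PT marker list (63818 to 111765 against 83429 to 142019). Their median UMI count was higher in 5 of 9 mice and their mitochondrial share in 3 of 9. Scrublet scores cells as likely doublets, and a larger share of them fell among its 6% highest scores in 7 of 9 mice (3.51% to 8.11% against 4.87% to 6.05%). The part of injury and dissociation in the members' differences was not tested. When the cells without a Cdkn1a UMI were drawn from the same mouse and PT cluster, an alternative chosen after seeing the data, 5 of 7 members tested were called, beside 0.671% of 7000 genes called as higher, with Phlda3 at 2.32, and Zmat3 was no longer tested.

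**Figure D5:**
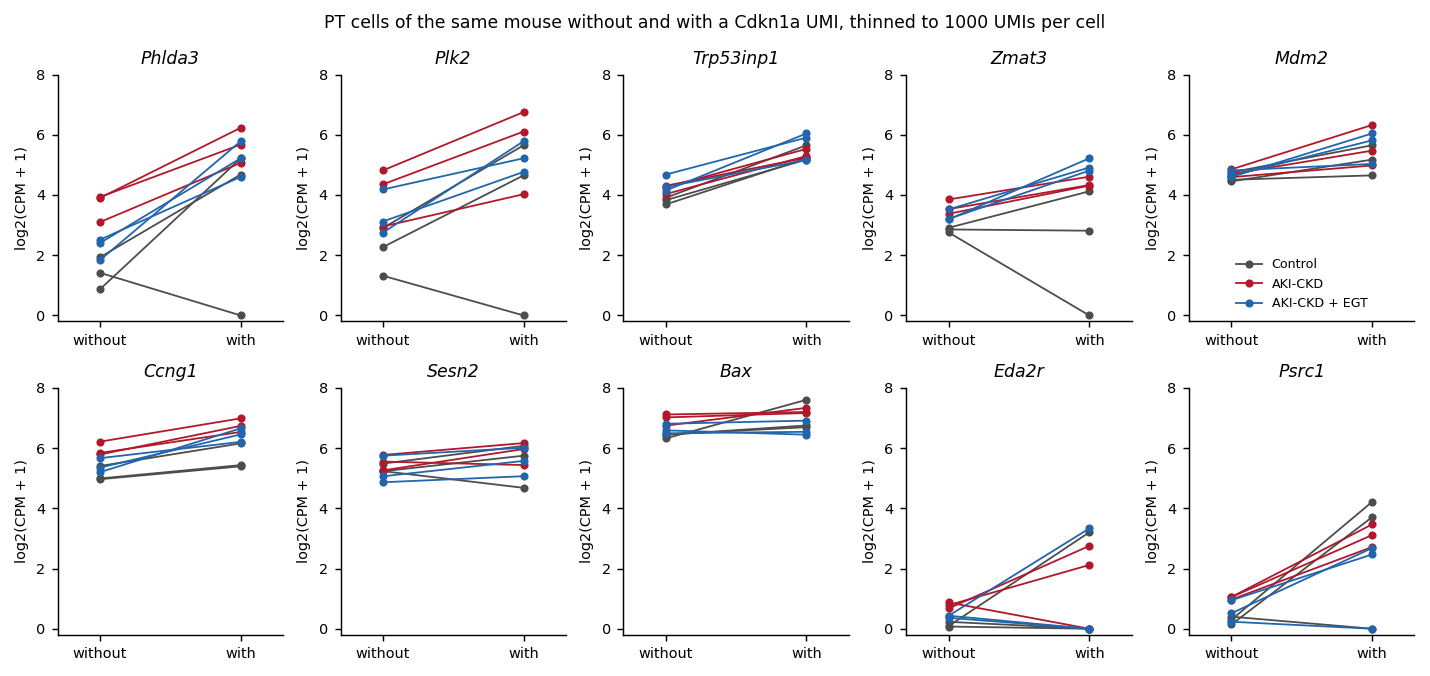
Level of each member in PT cells without and with a Cdkn1a UMI, as log2(CPM + 1) of cells thinned to 1000 UMIs, with 1 line per mouse joining its pair of values. The lines for Mdm2, Ccng1 and Trp53inp1 rise in 9 of 9 mice, those for Phlda3 and Plk2 in 8 of 9 and those for Eda2r in 4 of 9.

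In LOH cells edgeR called 0 of the 4 members tested (Bax, Ccng1, Mdm2 and Sesn2) between cells with and without a Cdkn1a UMI, where it called 0.297% of 4708 genes as higher. None of the 4 reached an unadjusted p under 0.05 either, and DESeq2 was not run there. Phlda3, untested in LOH cells, was higher in 7 of 9 mice, at a median of 40.0 against 6.64 CPM, with 20 UMIs in cells with a Cdkn1a UMI. The other members untested there were higher in 5 of 9 mice (Plk2), 3 (Trp53inp1 and Zmat3) or 0 (Eda2r and Psrc1). In DCT cells edgeR called 1 of 3, Bax, with 0.69 (SE 0.21, edgeR adjusted p = 0.0434), beside 1.69% of 3311 genes. Phlda3 was too scarce to be tested in DCT cells but was higher in 9 of 9 mice, at a median of 93.9 against 13.2 CPM, as was Sesn2 at 83.5 against 32.2 CPM. Of the other untested members Trp53inp1 was higher in 8 of 9 mice, Zmat3 in 5, Plk2 and Psrc1 in 3 and Eda2r in 1.

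Other genes of the pathway were looked at through 2 lists. Of 38 further p53 targets, Cdkn1a included, 33 were tested in PT cells. Cdkn1a was at 9.25, 9.54 and 3.84 CPM in Control mice, 47.2, 128 and 90.6 CPM in AKI-CKD and 42.8, 16.7 and 27.8 CPM in AKI-CKD + EGT mice. Its log2 fold change between AKI-CKD and Control mice was 3.56 (SE 0.47), given as a description because the list, like the members, was put together with that difference known. Between AKI-CKD + EGT and AKI-CKD mice edgeR called none of the 33, 26 were below 0 and 7 above, and the median was -0.17. At an unadjusted p under 0.05 there were 6 below 0 (Aen, Cdkn1a, Rps27l, Rrm2b, Tnfrsf10b and Triap1) and 1 above (Ak1), named after their values were seen, that is 7 of 33 where 15% of the 17868 genes tested in these cells reached the same p.

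Between PT cells with and without a Cdkn1a UMI, 24 of the list were tested and 3 were called, all higher, where 0.816% of 11024 genes were called as higher: Gdf15, a secreted stress cytokine, at 1.61 (SE 0.07), Btg2, which restrains proliferation, at 1.29 (SE 0.10) and Pmaip1 (Noxa), which favours apoptosis, at 1.11 (SE 0.20). The second list held 15 regulators of p53, such as Mdm4, Atm and Chek2. Of the 14 tested in PT cells edgeR called 0 in both comparisons with the EGT mice, and none reached an unadjusted p under 0.05. Trp53, the gene of p53 itself, was at 12.5 to 13.7 CPM in Control mice, 12.9 to 13.8 CPM in AKI-CKD and 11.5 to 15 CPM in AKI-CKD + EGT mice, with overlapping groups and log2 fold changes of 0.01 (SE 0.12) for the AKI-CKD mice over Control and 0.01 (SE 0.12) for the EGT mice over AKI-CKD.

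The genes most like the members over the PT sums were found by Pearson correlation with the mean standardized log2 CPM of the 10 members. Over the 9 mice, among 5841 genes with a mean log2 CPM of at least 4, the highest were Dnase2a (0.959), Tesk1 (0.958), Ncln (0.952), Aen (0.951), Scand1 (0.941) and Cdkn1a (0.940), and Pfdn6, Polr2f and Espn were also among the 10 highest. The points share the 3 groups and the library sizes, so these are descriptions without a p. Over 99 sums of a class and a mouse the likeness was weaker, with Aimp2 highest at 0.616, and only Polr2f was on both lists of 10.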

How the data were processed

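For each of the 9 mice the deposited values are UMI counts of genes in cell barcodes, which PISA wrote per the file headers and the authors did not normalize; the aligner is not given in the sources used here, and the build per the submitters' processing notes was GRCm39. Library totals were 70106161 to 101525691 UMIs, and their number limits the precision for scarce genes. Sequences come from a RefSeq table of build GRCm38.p6, so no coordinate was joined to the counts.

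Cells with at least 1000 UMIs, 500 genes and at most 15% mitochondrial UMIs were kept. They were clustered on 2000 variable genes and 30 principal components after Harmony correction of the library, with 20 neighbours and a resolution of 1.1 (scanpy 1.11.5, Python 3.11.15, numpy 2.4.6, scipy 1.17.1). The DCT class includes a connecting tubule-like cluster. Scrublet marked 0 cells in the libraries, so no doublets were removed. This is not read as an absence of doublets, and why it marked none was not tested. Barcode names are running cell numbers, 3583 to 7810 of which any pair of libraries shares, and no 2 libraries held identical values.

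Counts were summed per mouse and class with at least 20 cells in each mouse and tested with edgeR 4.0.16 (filterByExpr, TMM, quasi-likelihood F test, R 4.3.3) in a fit of all 9 mice, with Benjamini-Hochberg adjustment over all genes tested in a class and a threshold of 0.05. DESeq2 1.42.0 was an alternative. The Cdkn1a division used cells thinned to 1000 UMIs and the mouse as a block. Replicate numbers are not stated to pair mice and were not used as a block in the main fit. On simulated counts with known folds the fits were checked before use. Other alternatives were no filter on low counts, a fit of the 6 mice of a comparison, a block for the replicate number, library sizes without mitochondrial, ribosomal protein and Malat1 counts, a 10% mitochondrial limit, no Harmony correction, removal of the 6% of cells with the highest Scrublet scores, another thinning seed, no thinning, no mouse block and each mouse left out. Scaling without TMM and matching on cluster were added after seeing the data.

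The members and the gene lists were chosen with earlier results of these data known. The text names the 10 members, Cdkn1a and Trp53, up to 5 listed genes per comparison and class with an adjusted p under 0.05, and genes from the 10 of most similar pattern, of which 1 is not reported here. Genes outside these rules are named as such, except examples of what a list contains.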

Additional observations from a re-analysis of the deposited data

Results flagged for a closer look

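Mdm2 lay in opposite directions from Control in different classes, with mice that did not overlap. Between AKI-CKD and Control mice its log2 fold change was 0.21 in endothelial-like and 0.87 in T-like cells, where every AKI-CKD mouse was above every Control mouse, and -0.39 in CD-IC cells, where every one was below. Between AKI-CKD + EGT and Control mice it was 0.56 in macrophage-like cells, with every EGT mouse above, and -0.41 in CD-IC cells, with every EGT mouse below. The differences between classes were not tested. Of all genes, 9.44% in T-like and 7.51% in endothelial-like cells were higher in every AKI-CKD than in every Control mouse and 7.91% in CD-IC cells were lower, and between EGT and Control mice 4.9% in macrophage-like cells were higher and 5.93% in CD-IC cells lower, so single separations are common. The values rest on few UMIs, 55 to 63 per group in CD-IC cells, 22 and 47 in T-like cells, 45 and 57 in macrophage-like cells and 99 and 116 in endothelial-like cells. With 3 mice per group no sample was examined as an outlier.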

How the results depend on the processing

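Of 142 checks of the main results under 22 other settings, 130 gave the same outcome, 11 passed the threshold more often and 1 less often, and the cause was not tested. Members called between AKI-CKD + EGT and AKI-CKD mice in PT cells numbered 0, but 5 with DESeq2 and 3 with no filter on low counts (0.735% of all genes). In the 10 other classes they numbered 0, but 4 with no filter (0.984% of all pairs) and 0 to 3 when a mouse was left out, the 3 (Phlda3 in DCT and LOH cells, Ccng1 in LOH cells) without AKI-CKD + EGT mouse 1, when calls over all pairs went from 154 to 1586. Against Control, DESeq2 called 2 in PT cells and no filter gave 1 in the other classes (0.179% of all pairs). In the Cdkn1a division 6 members were called, 6 with any mouse left out, 8 with no filter (Eda2r and Psrc1 added), where 0.392% of all genes were called as higher, 10 without thinning, where it was 2.86% instead of 0.816%, and 0 with DESeq2, whose filter left 1. Of the pathway lists without Cdkn1a, over the 3 comparisons in the 11 classes, 0 were called, but 5 with DESeq2, 12 with no filter and 0 to 1 with a mouse left out. Of these, 3, 6 and 1 (without Control mouse 2) fell in AKI-CKD against Control, which is a description because the lists were put together with that difference known, and 2, 6 and 1 (without EGT mouse 1) fell between the EGT and the AKI-CKD mice. In the latter comparison DESeq2 called 2.37% of all genes in PT cells and 0.451% of all pairs in the other classes. With no filter these shares were 0.735% and 0.984%, and without EGT mouse 1 they were 0.693% and 2.03%, beside 0% and 0.210% in the main fit. The median of the members between AKI-CKD and Control mice was 0.81 to 1.06 with a mouse left out. Without TMM, where the median of all genes was itself 0.20 against AKI-CKD and 0.12 against Control, Trp53inp1 (0.015) and Mdm2 (0.10) came above 0 but stayed under those medians. Against Control with a mouse left out the sign changed for Mdm2 (-0.070 to 0.049, above 0 without Control mouse 1), Ccng1 (-0.053 to 0.32) and Bax (-0.034 to 0.26), both below 0 without EGT mouse 1.

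Correlations between the deviations of same-numbered mice ran from -0.41 to 0.32, beside -0.32 to 0.40 for mice of different numbers. With so few mice per group this check cannot decide whether the numbers pair mice. With the replicate number as a block 0 members were called in either comparison with the EGT mice, and between AKI-CKD and Control mice 0 genes were called in PT cells instead of 8. Eda2r was too scarce to be tested outside PT cells, and Psrc1 outside PT cells and the cycling cluster.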
